A study of Danio rerio with 2 samples.

Results

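The outer and the inner part of the wound were compared in the heart of 1 adult zebrafish, taken 7 days after cryoinjury of the ventricle (7 dpi). The fish was wild type, as its WT title was taken to mean, and the ventricle had been cut into 38 consecutive cryosections of 12 µm, starting in the injury and ending in the uninjured remote muscle. Sections 1 to 7 formed the outer wound and sections 8 to 17 the inner wound, which makes 17 of the 38 sections of this heart and of the 78 sections of both hearts in the series. The other heart, taken 3 days after cryoinjury (3 dpi) and also WT by its title, and sections 18 to 38 of the 7 dpi heart entered as background. The groups were chosen by measured values: their limits had been set earlier on the expression profiles and leukocyte transcripts of these same counts. No uninjured or sham heart was analysed here, and sections of 1 heart cannot stand in for replicate animals. All differences are therefore given as a description of this heart, with no test.

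The study measured polyadenylated transcripts of single sections by CEL-seq, a method that barcodes and linearly amplifies RNA from very small inputs and counts reads per gene. Raw counts of a group were pooled without spike-in rows and scaled to counts per 1000000 gene counts (CPM). Genes entered with at least 50 counts over sections 1 to 17, and 1374 did, of which 1201 had a name. They held 86.6% of the outer and 84.8% of the inner counts. Intervals in brackets are exact 95% Poisson intervals of a ratio. They cover counting error only, not variation between sections or animals. They are too narrow if several reads of the same molecule were counted.

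A cryoinjury kills the tissue at the tip of the ventricle, and in zebrafish the dead muscle is cleared and replaced by new muscle over the following weeks. In the first week the wound holds clotted blood, macrophages and neutrophils that take up debris, and activated epicardial cells and fibroblasts that lay down fibronectin and collagen. New vessels and endocardium grow into it, while cardiomyocytes at its border divide. A section series through such a wound passes from its outer face toward its border with living muscle.

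The outer wound held 214369 gene counts in 7 sections, and the inner wound held 524635 in 10. Section totals ran from 2620 to 80035 (median 26373) in the outer and from 1528 to 183108 (median 36124) in the inner wound. Section 3 alone gave 37.3% of the outer counts and section 10 gave 34.9% of the inner counts. Sections 4, 6, 9 and 15 fell under a depth minimum of 16192 counts (20% of the 75th percentile of this heart's section totals), which left 5 outer and 8 inner sections for statements on single sections, called deep sections here. Genes with any count numbered 8125 in the outer and 11886 in the inner wound, which also differ in depth. Gene counts per spike-in count were 131 in the pooled outer and 187 in the pooled inner wound. Over deep sections this ratio spanned 85.9 to 225 in the outer and 73.6 to 612 in the inner wound, so the groups overlapped. In such bulk sections, fewer cells of a type and less RNA per cell cannot be told apart.

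The inner wound had been described as rich in leukocyte transcripts, and its leukocyte values are given first. They cannot check that description, because the limits had been set on leukocyte transcripts of these same counts. spi1a, a transcription factor of myeloid cells, had 1 count in the outer and 24 in the inner wound. That is a ratio of 9.81 (1.6 to 403) toward the inner wound, and its total stayed under the minimum of 50. CTSD, the lysosomal protease cathepsin D, had 84 counts (392 CPM) in the outer and 348 (663 CPM) in the inner wound, 1.69-fold higher in the inner wound (1.33 to 2.17). Its deep sections overlapped, at 181 to 787 CPM in the outer and 316 to 1425 CPM in the inner wound. In the pool, the macrophage and myeloid list differed little. Its 55 IDs summed to 11261 CPM in the outer and 12043 CPM in the inner wound, 1.07-fold higher in the inner wound (1.02 to 1.12). Single sections separated more than the pool, to which sections 8 and 10 gave 54.2% of the inner counts, at 8182 and 9492 CPM for the list. Sums of deep sections spanned 5422 to 12694 CPM (median 10669) in the outer and 8182 to 20355 CPM (median 14330) in the inner wound, and 5 of 8 deep inner sections lay above every deep outer one. The shallow outer sections 4 and 6 had 16818 and 18702 CPM. The mean over deep sections, which leaves out sections 4 and 6, was also used in place of pooled counts. The median log2 ratio of outer over inner of the members was then -0.44, against -0.03 in the pool. MPEG1, a pore-forming protein of macrophages, had 378 CPM in the outer and 295 CPM in the inner wound at ENSDARG00000055290, a ratio of outer over inner of 1.28 (0.965 to 1.68). Its other ID, ENSDARG00000043093, had 18 outer and 22 inner counts, a ratio of 2.0 (1.01 to 3.91) toward the outer wound. Section 7 held 17 of these outer counts and section 13 held 16 of the inner counts. The total of this ID, 40, also stayed under the minimum of 50. The scavenger receptor marco had 369 CPM in the outer and 286 CPM in the inner wound, a ratio of 1.29 (0.969 to 1.70) toward the outer wound that turned to the inner wound without section 3. Both parts thus held macrophage transcripts.

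Markers of heart muscle had few counts in both parts, and the contractile list leaned toward the inner wound. TNNT2, cardiac troponin T, had 0 outer and 28 inner counts, against 6549 in the rest of the heart. MYL7 had 6 outer, 13 inner and 7497 further counts, and cmlc1 had 2, 32 and 20385. The 32 contractile IDs summed to 471 CPM in the outer and 759 CPM in the inner wound, 1.61-fold higher in the inner wound (1.29 to 2.02). Deep sections overlapped, at 265 to 650 CPM in the outer and 144 to 2234 CPM in the inner wound. The highest value was in section 17. Of the defining endothelial markers, cdh5 had 0 outer, 26 inner and 1518 counts in the rest of the heart, while vwf and pecam1a had 0 counts in both wound parts.

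Most genes were alike in both parts. Of 1374 genes, 1156 (84.1%) lay within 2-fold, and the median log2 ratio of outer over inner was -0.04. Nominally higher in the outer wound were 648 genes (47.2%) and in the inner wound 726 (52.8%), which is the background for the counts of list members below. At least 2-fold higher were 75 genes (5.46%) in the outer and 143 genes (10.4%) in the inner wound. A stricter count left out, for each gene, the section of the higher group that held the most of its counts. It kept 27 genes (1.97%) as higher in the outer and 101 genes (7.35%) as higher in the inner wound, and these are the genes called outer-high and inner-high here. Of the 75 outer genes, 44 had more counts in section 3 than in any other outer section. FOSL1, an AP-1 subunit, had all 81 of its outer counts in section 5 and 2 counts in the inner wound, and it was not kept. Just inside and outside the threshold, 51 genes differed 2-fold to 2.2-fold and 75 genes 1.8-fold to 2-fold.

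**Figure D1:**
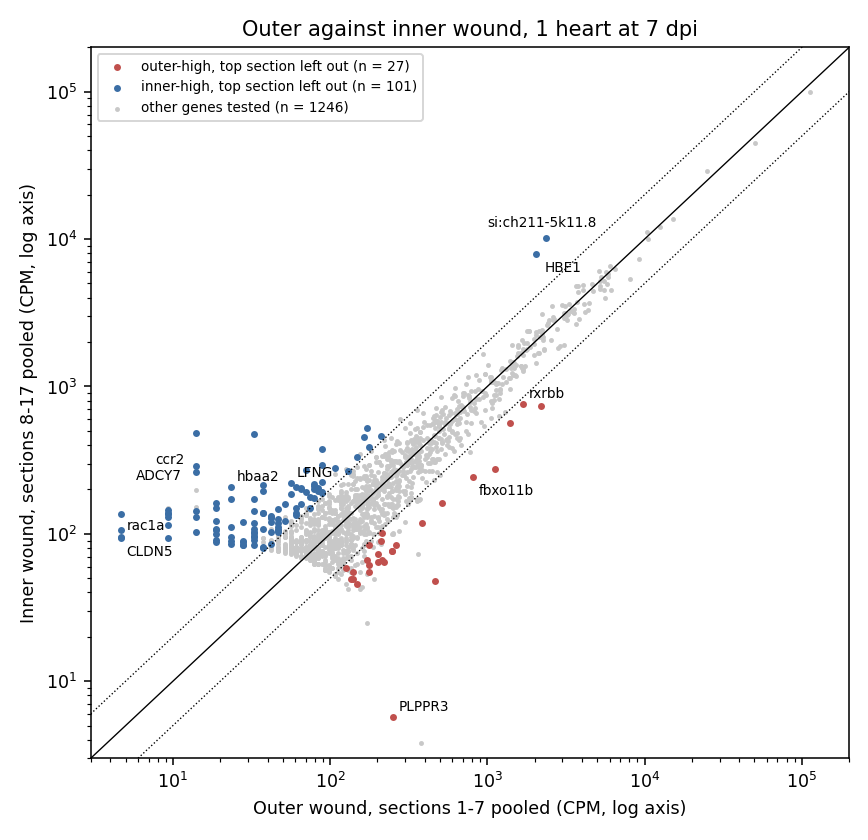
Pooled CPM of 1374 genes in the outer wound (x axis, sections 1 to 7) and the inner wound (y axis, sections 8 to 17), both on log axes. The solid line marks equality, dotted lines mark 2-fold, and genes at 0 are drawn at 3 counts. The 27 outer-high genes (red) lie below the line and the 101 inner-high genes (blue) above it, many of them with 1 to 5 outer counts.

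The parts differed in depth, which bears on these counts. The inner wound gave 71.0% of the counts, so 86 of the 101 inner-high genes reached the minimum of 50 on inner counts alone, whereas 12 of the 27 outer-high genes did so on outer counts alone. No support is drawn from the numbers of genes called. Single sections separated the parts poorly. Spearman correlation between deep sections over the 1374 genes had a median of 0.578 within the outer wound (10 pairs), 0.590 within the inner wound (28 pairs) and 0.577 between them (40 pairs). These sections share library preparation and many low counts, so the values are a description only. Over the 13 deep sections, 1 gene (0.0728%) had all outer values above all inner values, the unnamed ENSDARG00000071806. In the other direction 6 genes (0.437%) did so, namely CLDN5, ADCY7, HBE1 (ENSDARG00000089087), ifi30a, si:ch1073-441p17.1 and the unnamed ENSDARG00000083403.

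**Figure D2:**
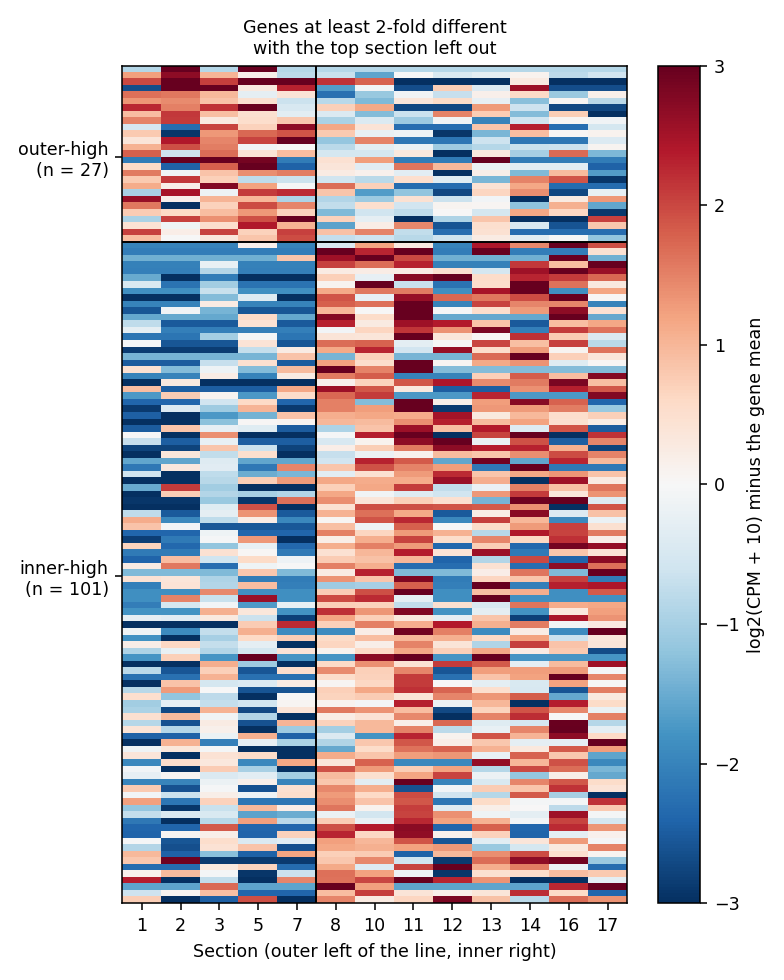
Log2(CPM + 10) minus the gene's mean (colour) of the 27 outer-high and 101 inner-high genes (rows) in the 5 deep outer sections (left of the vertical line) and the 8 deep inner sections (right). The rows were chosen for this difference, so the blocks themselves are no result. Within each block single sections vary widely, and 7 genes have fully separate values.

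Globins had the most counts among the inner-high genes. Vertebrate haemoglobin joins alpha-type and beta-type chains, and zebrafish red cells are nucleated and keep globin mRNA in the circulation. Summed over 5 globin genes, grouped after their values were seen, the outer wound had 972 counts (4534 CPM) and the inner wound had 9727 (18540 CPM). The inner wound was 4.09-fold higher (3.83 to 4.37), and the rest of the heart had 14514 CPM. Outer sections 1 to 7 had 1052, 723, 3036, 9517, 5818, 19084 and 12627 CPM in order. Inner sections 8 to 17 had 17609, 18325, 18159, 20036, 46275, 13231, 17831, 41717, 12734 and 12264 CPM. Sections 1 to 5 thus lay below every inner section, whereas sections 6 and 7 lay within the inner range. The pool of sections 1 to 3 had 2105 CPM and that of sections 4 to 7 had 9503 CPM. The highest inner values came from sections 12 and 15, which had 20832 and 10739 gene counts.

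**Figure D3:**
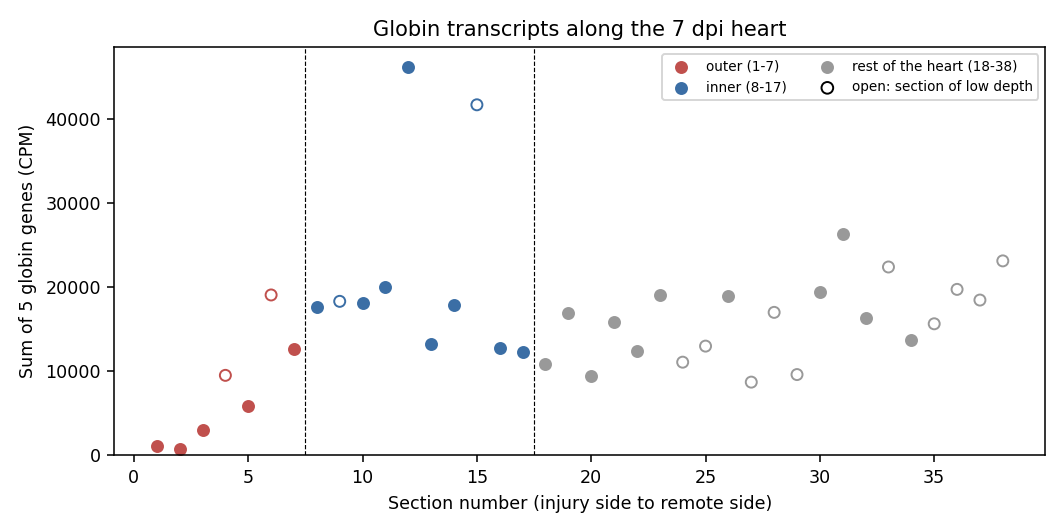
Summed CPM of 5 globin genes (y axis) by section number from the injury to the remote side (x axis), with dashed lines at the limits of outer, inner and remaining sections and open circles for sections of low depth. Sections 1 to 3 have 723 to 3036 CPM, all 10 inner sections have 12264 CPM or more, and the rest of the heart has 14514 CPM in the pool.

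Of the individual globins, 4 had ratios toward the inner wound whose intervals excluded equality. HBE1 at ENSDARG00000089087, a beta-type globin, had 440 counts (2053 CPM) in the outer and 4151 counts (7912 CPM) in the inner wound, 3.85-fold higher in the inner wound (3.49 to 4.26). Its deep outer sections spanned 215 to 3906 CPM (median 1574) and its deep inner sections 4349 to 18673 CPM (median 7260), without overlap. The shallow outer sections 4 and 6 had 5005 and 8397 CPM, within the inner range. si:ch211-5k11.8, which RefSeq lists with the synonym hbaa1.2, had 506 outer and 5300 inner counts and was 4.28-fold higher in the inner wound (3.91 to 4.70). There the deep outer maximum of 8342 CPM, in section 7, exceeded the deep inner minimum of 5670 CPM. hbaa2, an alpha globin, had 5 outer and 109 inner counts, 8.91-fold higher in the inner wound (3.70 to 28), with 62 of the inner counts in section 10. HBE1 at ENSDARG00000069734 had 19 outer and 154 inner counts, 3.31-fold higher in the inner wound (2.05 to 5.65). The fifth, hbae4, had 2 outer and 13 inner counts, a ratio of 2.66 toward the inner wound whose interval (0.601 to 24.2) includes equality. Near-identical globin copies may share reads, so the split between them is uncertain.

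Other erythroid transcripts were few. The erythrocyte list had 15 IDs, of which fth1a (a ferritin heavy chain) and hbaa2 had enough counts to enter. Its sum was 457 CPM in the outer and 1132 CPM in the inner wound, 2.48-fold higher in the inner wound (2.0 to 3.1). Deep sections spanned 263 to 683 CPM in the outer and 713 to 2224 CPM in the inner wound, without overlap. Of the shallow sections, outer sections 4 and 6 had 1067 and 0 CPM, and inner sections 9 and 15 had 0 and 1955 CPM. hbaa2, already counted among the globins, and fth1a gave 69 of the 98 outer and 384 of the 594 inner counts. The other 13 IDs had 135 CPM in the outer and 400 CPM in the inner wound, 2.96-fold higher in the inner wound (2.0 to 4.53). fth1a itself had 64 outer and 275 inner counts and was 1.76-fold higher in the inner wound (1.33 to 2.34). Below the minimum, gata1a, the erythroid master regulator, had 0 outer and 42 inner counts. alas2, the first enzyme of erythroid haem synthesis, had 7 and 28, and cahz, a red-cell carbonic anhydrase, had 8 and 29. These counts are not scaled to depth, and the inner wound held 71.0% of all counts.

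Leukocyte genes were split. In the macrophage and myeloid list, 27 IDs entered, with a median log2 ratio of -0.03 against -0.04 for all genes, and 13 were nominally higher in the outer and 14 in the inner wound. Inner-high were 4 of the 27 (itgb2, ccr2, ptprc and lgals9l1) and outer-high none, beside 7.35% and 1.97% of all genes. itgb2, the common chain of the leukocyte integrins, had 28 outer and 140 inner counts, 2.04-fold higher in the inner wound (1.35 to 3.19). Its deep sections had 0 to 271 CPM (median 125) in the outer and 0 to 663 CPM (median 285) in the inner wound, so they overlapped. ptprc, the pan-leukocyte phosphatase CD45, had 6 outer and 47 inner counts, 3.2-fold higher in the inner wound (1.37 to 9.16). lgals9l1, a galectin-9-like gene, had 4 outer and 46 inner counts, of which 21 were in section 13.

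ccr2, the receptor that draws monocytes to tissue in mammals, had 3 outer and 151 inner counts, a ratio of 20.6 (6.90 to 101) toward the inner wound. Of the inner counts, 86 were in section 10 and 50 in section 14, and no other inner section had more than 4. Most of the inner counts thus lay in a pair of sections. The median of deep sections was 0 CPM in the outer and 52.1 CPM in the inner wound. The most abundant members of the same list were even. cd74a, the invariant chain of class II antigen presentation, had 1488 CPM in the outer and 1435 CPM in the inner wound. ctss2.2, a cathepsin S, had 1465 and 1435 CPM, and CORO1A, a leukocyte actin-binding protein, had 1040 and 1168 CPM. IRF8, a transcription factor of macrophage fate, had 32 outer and 33 inner counts, 2.37-fold higher in the outer wound (1.41 to 3.98), but 19 of its outer counts were in section 3 and it was not kept.

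The sum of the neutrophil list was even once a single broadly expressed gene was set aside. The 13 IDs of the neutrophil list summed to 6064 CPM in the outer and 4437 CPM in the inner wound, 1.37-fold higher in the outer wound (1.28 to 1.46). Nearly all of this was s100a10b, an S100 protein that is not restricted to neutrophils, with 1201 of 1300 outer and 2086 of 2328 inner counts. Without it the other 12 IDs had 462 CPM in the outer and 461 CPM in the inner wound, a ratio of 1.0 (0.784 to 1.27). Of their counts, srgn gave 50 of 99 in the outer and 151 of 242 in the inner wound. Its own ratio of outer over inner was 0.81 (0.576 to 1.12), so the even sum rests in large part on srgn. The median log2 ratio of the 3 IDs that entered was 0.25, and without section 3 it was -0.44. The neutrophil lysozyme lyz had 4 outer and 0 inner counts. The lymphocyte list, with 15 IDs, had 392 CPM in the outer and 307 CPM in the inner wound, a ratio of 1.28 (0.969 to 1.67) that includes equality.

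Genes of antigen presentation were as even as all genes by their median, but their sum and the lysosomal genes leaned slightly toward the inner wound. The 12 antigen presentation genes that entered had a median log2 ratio of -0.05, against -0.04 for all genes. Of these, 5 were nominally higher in the outer and 7 in the inner wound. The 24 IDs of the list summed to 9871 CPM in the outer and 11069 CPM in the inner wound, 1.12-fold higher in the inner wound (1.07 to 1.18). Deep sections overlapped, at 5763 to 10619 CPM (median 10165) in the outer and 9197 to 14740 CPM (median 12512) in the inner wound. Outside this list, ifi30a, the lysosomal thiol reductase that opens antigens for class II loading, had 14 outer and 107 inner counts. That was 3.12-fold higher in the inner wound (1.78 to 5.90). Its deep sections did not overlap, at 0 to 71.7 CPM in the outer and 88.9 to 576 CPM in the inner wound. This gene was chosen after its values were seen. b2m, the light chain of class I molecules, had 3653 CPM in the outer and 4819 CPM in the inner wound, 1.32-fold higher in the inner wound (1.22 to 1.43). The list held 1 inner-high gene, the proteasome subunit psmb13a with 7 outer and 44 inner counts, and no outer-high gene. Of 24 lysosomal proteases and hydrolases, none passed 2-fold, 7 were nominally higher in the outer and 17 in the inner wound, and the median log2 ratio was -0.25, beside 52.8% of all genes nominally higher in the inner wound. The V-ATPase pumps that acidify lysosomes had 1 of 8 subunits nominally higher in the outer and 7 in the inner wound. Their 23 IDs summed to 2146 CPM in the outer and 2731 CPM in the inner wound, 1.27-fold higher in the inner wound (1.15 to 1.42), again with overlapping sections (1301 to 3300 and 1296 to 4209 CPM).

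The sum of the endothelium list came mostly from 1 gene that is not restricted to endothelium. Its 31 IDs, of which 2 entered, summed to 1735 CPM in the outer and 1580 CPM in the inner wound. That is a ratio of 1.1 (0.969 to 1.24), which includes equality. CXCL12, described below, gave 300 of the 372 outer and 599 of the 829 inner counts. The even sum is thus mostly that of CXCL12 and says little on the other IDs. Of the 2 IDs that entered, 1 was nominally higher in the outer and 1 in the inner wound. CLDN5, cdh5 and spns2 below are single genes, and no direction of endothelial genes as a set is drawn from them. CLDN5 at ENSDARG00000014059, the tight-junction claudin of endothelium in mammals, had 1 outer and 50 inner counts, a ratio of 20.4 (3.50 to 823) toward the inner wound. Its outer count was in section 3, and all 8 deep inner sections had at least 1 count, spanning 18.9 to 401 CPM. Sections 14 to 17 held 35 of the 50 inner counts (7, 6, 12 and 10), and the rest of the heart had 101 CPM. cdh5, VE-cadherin, had 0 outer and 26 inner counts. With 0 raised to 3 counts it was at least 3.54-fold higher in the inner wound, or 2.68-fold at the lower limit of its interval, and it had 591 CPM in the rest of the heart. The other endothelial gene with enough counts, CXCL12, a chemokine also made by other stromal cells, had 300 outer and 599 inner counts and was 1.23-fold higher in the outer wound (1.06 to 1.41). Section 1 held the most of its outer counts, and without it the direction turned, at 1.08-fold higher in the inner wound. spns2, a sphingosine-1-phosphate exporter, had 3 outer counts, all in section 3, and 68 inner counts, a ratio of 9.26 (3.04 to 46.0) toward the inner wound, and it had 226 CPM in the rest of the heart.

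Contractile genes of smooth muscle were mixed. acta2, smooth-muscle actin, had 19 outer and 118 inner counts, 2.54-fold higher in the inner wound (1.56 to 4.36). Of its outer counts 15 were in section 3, and without that section the log2 ratio of outer over inner was -2.92 against -1.34 with it. cald1a, caldesmon, had 7 outer and 57 inner counts, 3.33-fold higher in the inner wound (1.51 to 8.65). The more abundant TAGLN (transgelin) had 1385 CPM in the outer and 1485 CPM in the inner wound, and MYL9, a myosin light chain, had 490 and 539 CPM. Inner-high were 2 of 7 members and outer-high none, beside 7.35% and 1.97% of all genes, and the sum of 20 IDs was 1.18-fold higher in the inner wound (1.07 to 1.30). THBS1, the matricellular protein thrombospondin 1, had 8 outer and 57 inner counts, 2.91-fold higher in the inner wound (1.38 to 7.07), and reached 375 CPM in the rest of the heart.

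Signalling genes were also among the inner-high set. ADCY7, an adenylyl cyclase that makes cyclic AMP, had 3 outer and 138 inner counts, a ratio of 18.8 (6.30 to 92.3) toward the inner wound. Its 5 deep outer sections had 0 to 23.9 CPM and its 8 deep inner sections 71.0 to 1152 CPM, without overlap, while the rest of the heart had 34.3 CPM. The shallow outer section 4 had 82.0 CPM, from 1 count, and the shallow inner section 9 had 0. LFNG, the fringe glycosyltransferase that modifies Notch receptors, had 12 outer and 117 inner counts, 3.98-fold higher in the inner wound (2.2 to 7.93). Of its outer counts 10 were in the shallow section 4. Its log2 ratio of outer over inner was -1.99, and -4.21 without sections of low depth, and its level in the rest of the heart was 729 CPM. WWTR1, the Hippo effector TAZ, had 10 outer and 77 inner counts, 3.15-fold higher in the inner wound (1.62 to 6.82), with 9 of the outer counts in section 3. Its log2 ratio of outer over inner was -1.65, and -4.30 without that section. EGFR, the receptor of EGF-type ligands, had 9 outer and 63 inner counts, 2.86-fold higher in the inner wound (1.41 to 6.54). In the list of Notch, Wnt, retinoid and Hippo genes, 2 of 7 members were inner-high and 1 was outer-high, beside 7.35% and 1.97% of all genes. Its 62 IDs summed to 2734 CPM in the outer and 2142 CPM in the inner wound, 1.28-fold higher in the outer wound (1.15 to 1.41). The outer-high member, rxrbb, gave 360 of the 586 outer and 400 of the 1124 inner counts, so this direction rests on 1 gene. Of the 7 members, 2 were nominally higher in the outer and 5 in the inner wound, with a median log2 ratio of -0.11. The series title names BMP signalling, and of 51 IDs for BMP, TGF-beta and activin genes 4 had enough counts, with none outer-high or inner-high. Of these, the BMP-responsive regulators ID1 and ID3 had 35 and 29 outer and 126 and 31 inner counts. ID3 was 2.29-fold higher in the outer wound (1.33 to 3.93) before its top section was left out, and ID1 had a ratio of outer over inner of 0.68 (0.454 to 0.995).

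**Figure D4:**
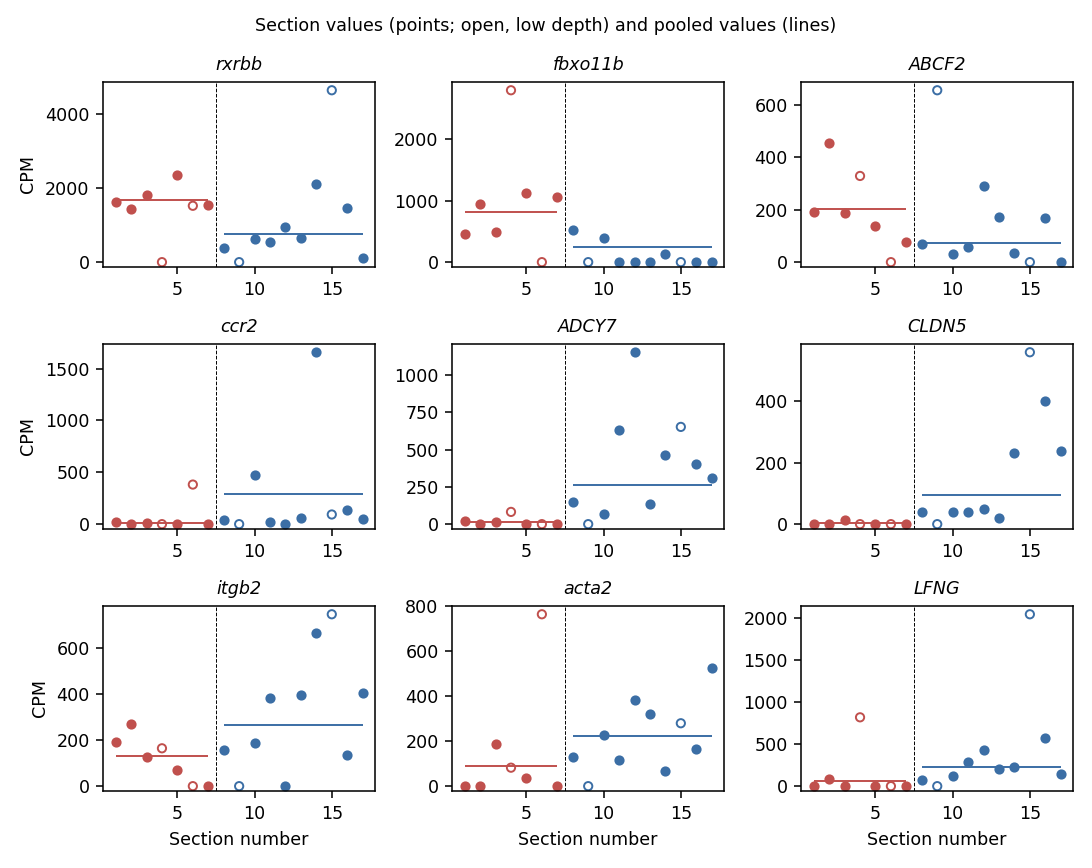
CPM by section (y axis, points) and pooled value (lines) of 9 genes against section number (x axis), outer sections left of the dashed line in red, inner sections right of it in blue, sections of low depth open. rxrbb, fbxo11b and ABCF2 are outer-high and the other 6 are inner-high. ADCY7 and CLDN5 separate the deep sections, whereas ccr2 has most of its counts in sections 10 and 14.

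The remaining inner-high genes of largest ratio had 1 to 4 outer counts. rac1a, a small GTPase of the actin cytoskeleton, had 1 outer and 56 inner counts, a ratio of 22.9 (3.94 to 920) toward the inner wound. atf5a, a stress-response transcription factor, had 1 outer and 72 inner counts, of which 41 were in section 10. tia1, a stress-granule protein, had 4 outer and 79 inner counts, 8.07-fold higher in the inner wound (3.03 to 30.3). The amino acid transporter SLC43A2, the ubiquitin-conjugating enzyme UBE2Q2, the solute carrier SLC35F6 and the complexin CPLX4 had 2, 2, 3 and 2 outer and 60, 71, 75 and 68 inner counts. Actin regulators capza1a and ARPC2 had 9 and 11 outer counts and 69 and 64 inner counts, so that 3 of 32 members of the actin list were inner-high. The abundant actin genes were level, with 12558 CPM in the outer and 12113 CPM in the inner wound for actb2. Proteasome genes PSMC6 (4 outer and 52 inner counts) and PSMD11 (6 and 44) were inner-high among 24, and initiation factors EIF5 (15 and 101) and EIF4G1 (13 and 79) among 29. These shares of the actin, proteasome and translation lists are near the 7.35% of all genes. CDK6, a G1 kinase, had 32 outer and 175 inner counts, and MCM6, a helicase subunit of DNA replication, had 4 and 48. PCNA, the replication clamp, had 4660 CPM in the outer and 4941 CPM in the inner wound. Of 7 DNA replication and mitosis genes that entered, 2 were inner-high and 0 outer-high, beside 7.35% and 1.97% of all genes. Nominally, 4 of the 7 were higher in the outer and 3 in the inner wound. Their median log2 ratio was 0.13, and it changed sign under 3 of 11 settings. Among unnamed IDs, ENSDARG00000056406 had 0 outer and 254 inner counts, at least 34.6-fold higher in the inner wound with 0 raised to 3 counts (lower limit 27.9), with 109 of them in section 8.

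Outer-high genes were fewer, with a median ratio of 3.1 for these 27 genes toward the outer wound and 3.15 for the 101 inner-high genes toward the inner wound. rxrbb, a retinoid X receptor that pairs with retinoic acid receptors and other nuclear receptors, had 360 counts (1679 CPM) in the outer and 400 counts (762 CPM) in the inner wound, 2.2-fold higher in the outer wound (1.90 to 2.55). Deep outer sections lay close together at 1447 to 2361 CPM, whereas deep inner sections ranged from 119 to 2121 CPM (median 645). Sections 14 and 16 of the inner wound were as high as outer sections, so the groups overlapped. Of the shallow sections, outer sections 4 and 6 had 0 and 1527 CPM, and inner sections 9 and 15 had 0 and 4656 CPM. fbxo11b, a substrate receptor of a ubiquitin ligase, had 174 outer and 127 inner counts, 3.35-fold higher in the outer wound (2.65 to 4.25). Of the inner counts 52 were in section 8, 71 in section 10 and 4 in section 14, and all other inner sections had 0, against 19 to 39 counts in 6 of 7 outer sections. Its log2 ratio of outer over inner was 1.75, and 2.31 without section 10.

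Several outer-high genes act in the nucleus or on RNA. YTHDF2, a reader of methylated mRNA, had 56 outer and 44 inner counts, 3.11-fold higher in the outer wound (2.06 to 4.73). hmgn3, a nucleosome-binding protein, had 53 and 40 counts and was 3.24-fold higher in the outer wound (2.11 to 5.02), with deep sections at 103 to 452 CPM in the outer and 48.0 to 119 CPM in the inner wound. HDAC1, a histone deacetylase, had 38 and 32 counts and was 2.91-fold higher in the outer wound (1.77 to 4.81). Of its outer counts 15 were in section 3 and 11 in the shallow section 6. Its deep sections overlapped, at 0 to 303 CPM (median 68.4) in the outer and 0 to 232 CPM (median 39.2) in the inner wound. RNASEH2A, a subunit of ribonuclease H2, had 99 and 25 counts and was 9.69-fold higher in the outer wound (6.2 to 15.7), but 78 of the outer counts were in section 3, and without it the ratio was 3.28. These functions were not a list, and no more than the values is drawn from them.

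Other outer-high genes included PTGES, a prostaglandin E synthase, with 38 outer and 44 inner counts, 2.11-fold higher in the outer wound (1.33 to 3.34). aebp1b, related to a collagen-binding matrix protein of mammals, had 46 and 53 counts and was 2.12-fold higher in the outer wound (1.40 to 3.21). ABCF2, EBNA1BP2, cst14a.2, dbn1, llgl1 and 3 genes named only by clone had 27 to 53 outer counts. PLPPR3, a member of a lipid-phosphatase-related family, had 54 outer and 0 inner counts. With 0 raised to 3 counts it was at least 44.1-fold higher in the outer wound, or 34.6-fold at the lower limit of its interval. Its counts lay in sections 2, 4 and 5 only (6, 23 and 25), and section 4 is shallow. ENSDARG00000071806 had 111 outer and 85 inner counts, with deep sections at 312 to 1130 CPM in the outer and 56.7 to 267 CPM in the inner wound.

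Matrix genes were split, with type I collagen higher in the outer wound in the pool. The 30 IDs for fibrillar collagen and crosslinking summed to 6685 CPM in the outer and 4984 CPM in the inner wound, 1.34-fold higher in the outer wound (1.26 to 1.43). Of 14 members that entered, 8 were nominally higher in the outer and 6 in the inner wound, and none was outer-high or inner-high, a split near that of all genes. Their median log2 ratio was 0.18, and without section 3 it was -0.10, so the direction turned. COL1A1 at ENSDARG00000035809 had 1288 CPM in the outer and 673 CPM in the inner wound, 1.91-fold higher in the outer wound (1.63 to 2.25), and its deep sections overlapped little, at 765 to 1677 CPM in the outer and 96.0 to 919 CPM in the inner wound. COL1A2 had 1395 and 957 CPM, 1.46-fold higher in the outer wound (1.26 to 1.69), but 170 of its 299 outer counts were in section 3, and without that section the ratio was 1.0. LOX, a collagen cross-linking enzyme, had 387 and 431 CPM, a ratio of outer over inner of 0.899 (0.690 to 1.16). DCN, the collagen-binding proteoglycan decorin, had 355 and 425 CPM, a ratio of 0.834 (0.634 to 1.09). Without section 10 both ratios turned to the outer wound, at 1.28 for LOX and 1.22 for DCN. SPARC, a collagen-binding matricellular protein, had 1073 and 770 CPM, 1.39-fold higher in the outer wound (1.18 to 1.64).

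Fibronectin was uneven by section. FN1 at ENSDARG00000006526 had 4152 CPM in the outer and 3187 CPM in the inner wound, 1.30-fold higher in the outer wound (1.2 to 1.41). Without section 7 the direction turned, at 1.56-fold higher in the inner wound. Section 7 held 506 of its 890 outer counts, and the adjoining section 8 held 577 of its 1672 inner counts, so much of its signal adjoined the limit between both parts. FN1 at ENSDARG00000019815 had 1050 and 610 CPM, 1.72-fold higher in the outer wound (1.44 to 2.05), with 115 of 225 outer counts in section 3. The epicardium list, which holds these genes, summed to 14088 CPM in the outer and 13169 CPM in the inner wound. Its keratins krt8 and krt94 had 2981 and 3256 CPM in the outer and 3572 and 3086 CPM in the inner wound. TCF21, a marker of epicardium and its fibroblasts, had 0 outer and 5 inner counts.

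Protein folding and interferon genes had medians toward the outer wound. Of 24 genes of protein folding and secretion in the endoplasmic reticulum, 19 were nominally higher in the outer and 5 in the inner wound, with a median log2 ratio of 0.31 and none past 2-fold, beside 47.2% of all genes nominally higher in the outer wound. All 4 interferon-response genes that entered were nominally higher in the outer wound (median 0.76), and none was outer-high. IRF8, described above, had a ratio of 1.54 toward the outer wound without section 3. isg15, a ubiquitin-like protein, was 1.11-fold higher in the outer wound (0.734 to 1.64), and 1.63-fold higher in the inner wound without section 1. Ribosomal proteins had a median of 0.11 over 66 genes, from -0.51 to 0.59, and none passed 2-fold. The 11 mitochondrially encoded genes had a median log2 ratio of -0.01, and the 35 nuclear genes of oxidative phosphorylation -0.05, with 1 inner-high gene, NDUFB7 (19 outer and 101 inner counts).

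**Figure D5:**
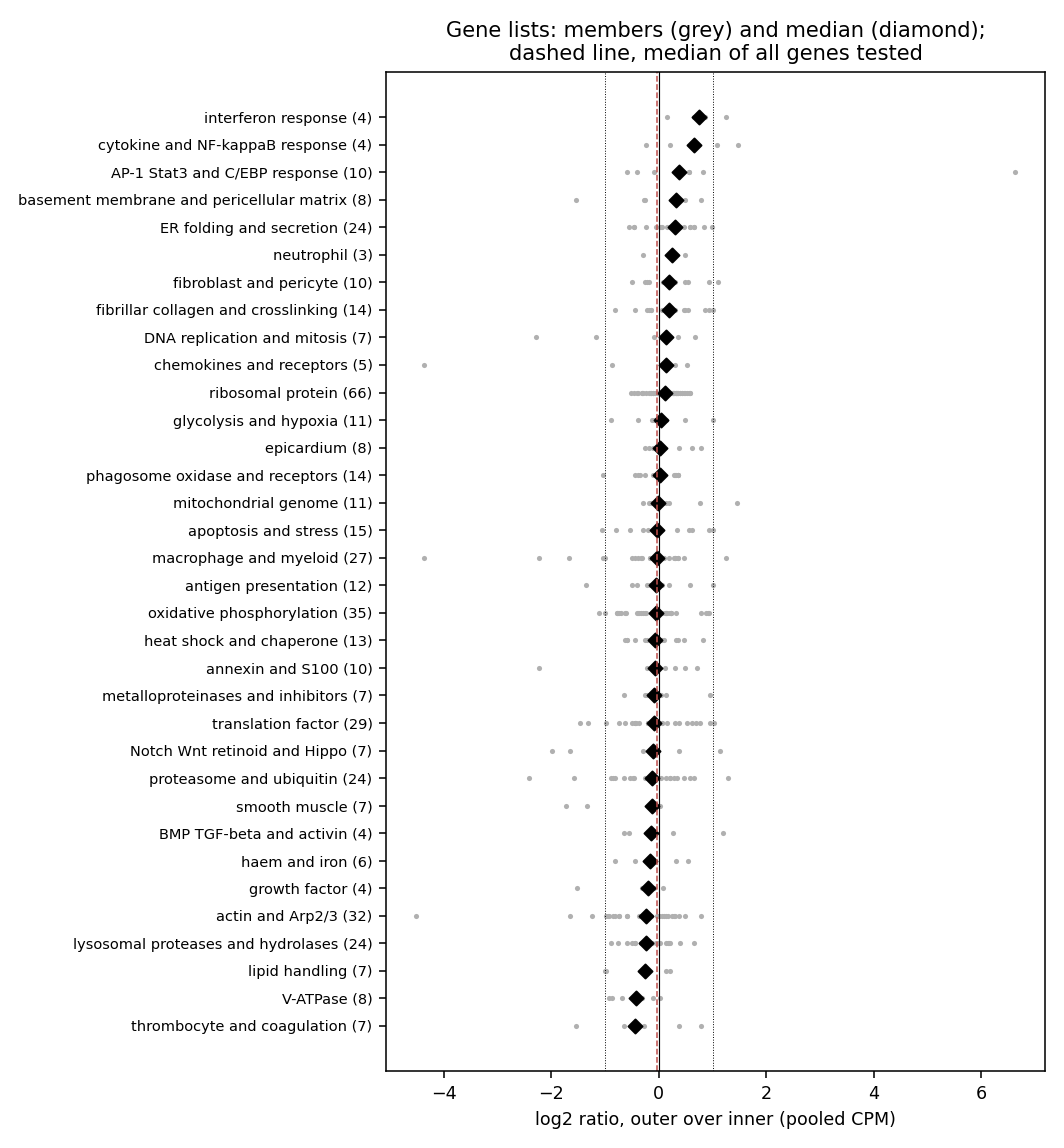
Log2 ratio of outer over inner wound (x axis, pooled CPM) for the members of 34 gene lists with at least 3 members tested (grey points; number in brackets) and the list medians (diamonds). Dotted lines mark 2-fold. Medians run from -0.45 (thrombocyte and coagulation) to 0.76 (interferon response), all within 2-fold of the median of all genes (dashed, -0.04).

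The rest of the heart and the other heart place these levels. Of the 101 inner-high genes, sections 18 to 38 were between the outer and inner level for 62, above both for 24 and below both for 15. Of the 27 outer-high genes they were between for 14 and below both for 13. Over all 1374 genes they were between for 375, above both for 350 and below both for 649. The choice of genes used the wound counts and required a wide gap between outer and inner level. Such a gap leaves more room for a level between, so these shares are a description. ADCY7 and ccr2 each had 14 CPM in the outer wound, 263 and 288 CPM in the inner wound, and 34.3 and 42.9 CPM in the rest. LFNG and THBS1 had their highest pooled level in the rest. In the 3 dpi heart, 71 inner-high genes had enough counts, and 41 were at least 2-fold higher in sections 1 to 10, on the injury side, than in remote sections 20 to 40. Of 17 outer-high genes 9 were. Over all 1230 genes with enough counts 628 were, so neither set departed much from the background. HBE1 (ENSDARG00000089087) had 17540 CPM on the injury side at 3 dpi, 5328 CPM in the middle sections 11 to 19 and 7948 CPM in remote sections. The hearts differ in day and in animal, which cannot be told apart.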

How the data were processed

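CEL-seq counts of single cryosections were used for 2 hearts, 1 at 3 dpi and 1 at 7 dpi, a column per section. The whole-number counts per Ensembl gene ID were deposited by the authors without normalization, and this unit is entered as other because the bare section numbers that name the columns could not be read by the automatic unit test. The aligner was BWA 0.6.2, per the submitters' processing notes. Genome build and annotation are not given in the sources used here, nor is it said whether molecular identifiers were counted. There were 0 columns of other samples.

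Of 16115 gene rows at 7 dpi 13135 matched a name, and 44 spike-in rows stayed out of library sizes. Counts were pooled per group and scaled to CPM. A count of 0 was raised to 3 counts over the group. Calls needed a 2-fold ratio at 50 counts, and again with the gene's top section left out. No test was made, and the ratio's intervals carry counting error only. The members of the comparison and the 38 gene lists were chosen with earlier results of these data known. Symbols were matched to lists regardless of case, and symbols in capitals also when the list's zebrafish symbol only added a closing a or b. List sums cover all matched IDs, whereas list medians and calls cover those with 50 counts. Named genes were the 15 per direction of largest ratio with the top section left out, up to 4 list members per list and direction, spi1a and CTSD. The 4 list members of most counts, list markers at low counts, the globin group, ifi30a, FOSL1 and unnamed IDs were chosen after their values were seen. Python 3.11.15, numpy 2.4.6, pandas 2.3.3, scipy 1.17.1 and matplotlib 3.10.9 were used, and the ratio code was tested on simulated data. Promoter motifs were not searched and no sequences are printed. RefSeq's table (assembly GRCz12tu) served for a synonym only.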

Additional observations from a re-analysis of the deposited data

How the results depend on the processing

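Each count was recomputed under 10 planned settings and under 1 setting added after the data were seen (outer as sections 1 to 3). Counts are given in the order outer 2-fold, inner 2-fold, outer-high, inner-high, which were 75, 143, 27 and 101. A minimum of 20 counts gave 347, 664, 99 and 419 among 3137 genes, and a minimum of 100 gave 21, 41, 9 and 35 among 769 genes. Without section 3 the inner 2-fold genes numbered 228 and the inner-high genes 176, of which 87 were shared with the 101. Without section 10 the outer-high genes numbered 43, of which 21 were shared with the 27. The cause of the changes without these sections was not tested. All other counts stayed within 1.5 times. With outer as sections 1 to 3 they were 106, 189, 40 and 137, sharing 17 of 27 outer-high and 78 of 101 inner-high genes. Median-of-ratios scaling gave 64, 158, 22 and 111 and moved the median log2 ratio of all genes to -0.11. Of the ratios of genes named by the rule for named genes, 500 values stayed within the gene's interval and 23 moved out of it. None changed sign. Many of these intervals are wide, so a value that stayed within one may still have moved far. The setting with the mean of section values used deep sections only. Under it, log2 ratios of outer over inner were larger in size for cald1a (-4.13 against -1.73), MCM6 (-4.98 against -2.29) and YTHDF2 (2.34 against 1.64). The shallow sections 4 and 6 held 3 and 1 of the 7 outer counts of cald1a. They held 2 and 1 of the 4 outer counts of MCM6, and 0 of YTHDF2. For cald1a and MCM6 this setting thus does not show the effect of averaging alone. Of 34 list medians, 21 changed sign under at least 1 setting. That of fibroblast genes was 0.20, and -0.03 without section 3. That of neutrophil genes was 0.25, and -0.44 without section 3. The other 13 medians kept their sign under all 11 settings. Among them, that of macrophage genes was -0.03 and ranged from -0.44, with the mean over deep sections, to -0.001. Medians of the V-ATPase, lysosomal, ribosomal, interferon and endoplasmic reticulum lists were also among these. No paired analysis was possible because each day has 1 heart and the compared groups are sections of the same heart. Depth limits genes of low count, since 0 counts allow a level of up to 14 CPM in the outer and 5.72 CPM in the inner wound.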
